A study of Mus musculus with 6 samples.

Results

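The replication-dependent histone genes were examined in T cells with the surface markers of regulatory T (Treg) cells, CD4+ CD25+, taken from the spleens of mice with and without Keap1 in their blood cells. KEAP1 is the protein that holds NRF2, a transcription factor of the oxidative stress response, at a low level. Members were taken from the array annotation: every row (a transcript cluster, a group of probes summarised to 1 value) that listed a gene symbol of the Hist1h, Hist2h, Hist3h or Hist4h series, or the newer form of such a symbol. This gave 69 of the 65528 clusters, which together listed 70 histone genes. Of these clusters, 30 listed 1 gene and 39 listed several, in most cases histone genes of 1 type. A cluster of the second kind is named here by the gene it lists first, without assigning the signal to that gene. By histone type there were 5 clusters for H1, 20 for H2A, 18 for H2B, 10 for H3, 14 for H4, and 2 that listed genes of more than 1 type. The members were chosen by gene symbol, but the group was selected on its measured Keap1_KO minus WT differences, which had been seen to be high, so every Keap1_KO to WT value of a histone cluster below is a description, and no test of it counts as support.

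The samples labelled Keap1_KO (replicates B, C and D, genotype Keap1 -/-) came from mice in which Cre under the Vav promoter, active in blood-forming cells, recombines floxed Keap1 alleles, so that Keap1 is lost in the blood lineages at large and not in Treg cells alone. The samples labelled WT (replicates A, D and F, genotype Keap1 +/+) came from matched wild-type mice, for which the labels do not say whether they carry Cre or floxed alleles. All 6 are male, C57BL/6 and untreated. The characteristics put them at 10 to 12 months of age, whereas the growth protocol speaks of mice of 6 to 10 weeks, and the cells are CD4-negative in the series title but CD4+ in every sample label. Cells were enriched with magnetic beads, and 40 ng of total RNA per sample was amplified for the array. The design text calls the triplicates independent without saying that each is a separate mouse, so a p-value here reflects how much these arrays vary, which can include technical variation.

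Histones package DNA: pairs of H2A, H2B, H3 and H4 form the core of the nucleosome, and linker histone H1 binds where DNA enters and leaves it. The replication-dependent genes lie in clusters of many near-identical, intronless copies, are transcribed mainly in S phase, and give mRNAs that end in a stem-loop instead of a poly(A) tail. NPAT drives their transcription at nuclear histone locus bodies, SLBP binds the stem-loop, and the mRNAs are degraded when replication ends. In T cells, their mRNA is therefore high in dividing cells and low in resting ones.

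The promoters of these genes carry short shared elements that differ between types. RefSeq (GRCm38.p6) gave 63 promoters for 62 of the 70 listed genes, each running from 250 bases before to 50 bases after the start. Each motif was searched on both strands, with overlaps allowed. The letters CCAAT form the box that the factor NF-Y binds. A TATA box was searched as TATAAA, the core promoter element. The octamer bound by OCT1 was searched as ATTTGCAT on either strand. In H4 promoters the cell cycle element holds the letters GGTCC near the start. The core of the antioxidant response element, which NRF2 binds, was searched as TGACNNNGC in the same windows. The stretches below are the 150 bases before the start of 5 genes, shown 5′ to 3′ along the gene, with every motif except the NRF2 core in capitals wherever it occurs on either strand. They are the first-listed genes of the H1 cluster with the largest difference (Hist1h1b), of the H2B cluster with the largest difference (Hist1h2bn), of another H2B cluster with the same listing (Hist1h2bj), and of H4 clusters with a large and a small difference (Hist1h4c and Hist1h4i).
Hist1h1b (RefSeq H1f5), chr13:21780626-21780775, minus strand: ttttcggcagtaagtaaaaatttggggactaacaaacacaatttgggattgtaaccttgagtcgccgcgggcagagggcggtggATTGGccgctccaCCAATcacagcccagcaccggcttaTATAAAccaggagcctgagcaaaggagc
Hist1h2bj (RefSeq H2bc11), chr13:22043048-22043197, plus strand: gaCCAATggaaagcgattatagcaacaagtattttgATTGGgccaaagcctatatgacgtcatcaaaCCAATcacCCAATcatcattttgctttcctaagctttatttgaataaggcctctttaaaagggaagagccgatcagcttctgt
Hist1h2bn (RefSeq H2bc15), chr13:21753926-21754075, plus strand: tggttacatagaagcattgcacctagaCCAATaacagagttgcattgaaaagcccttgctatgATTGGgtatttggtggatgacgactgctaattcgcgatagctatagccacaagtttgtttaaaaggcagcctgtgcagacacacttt
Hist1h4c (RefSeq H4c3), chr13:23698459-23698608, minus strand: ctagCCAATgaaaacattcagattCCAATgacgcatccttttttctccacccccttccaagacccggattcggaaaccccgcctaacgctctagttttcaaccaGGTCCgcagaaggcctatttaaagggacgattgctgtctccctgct
Hist1h4i (RefSeq H4c9), chr13:22041363-22041512, minus strand: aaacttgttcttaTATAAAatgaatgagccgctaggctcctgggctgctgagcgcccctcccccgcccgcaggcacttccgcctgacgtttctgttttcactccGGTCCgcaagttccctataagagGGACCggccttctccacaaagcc
The H1 stretch holds a TATAAA close to its start and CCAAT letters on both strands, both H2B stretches hold CCAAT letters on both strands, and each H4 stretch holds the GGTCC letters.

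The letters CCAAT occurred in 54 of the 63 histone promoters (85.7%), against 37.4% of all 32851 RefSeq mouse promoters in the table. They were present in all promoters of the H1 (6), H2A (18), H2B (17) and H3 (10) genes and in 3 of the 12 H4 promoters. GGTCC had the reverse distribution, with 11 of the 12 H4 promoters and 16 of the other promoters, and its share over all histone promoters (42.9%) was close to that of all promoters (45.5%). ATTTGCAT was found in 7 H2A and 7 H2B promoters and in none of the other types, 22.2% of histone promoters against 1.74% of all. TATAAA was found in 55.6% against 13.6%. TGACNNNGC stood in 2 histone promoters, 3.17% against 12.4%, 1 of an H2A and 1 of an H2B gene. A match describes letters only, and a missing match says only that these letters are not in this window.

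Values are the deposited log2 values, so a difference of 1 is a 2-fold change on the deposited scale, and differences are Keap1_KO minus WT. On 1268 clusters, 2 of them histone clusters, a value exceeded 16, the most that a 16-bit scanner can give on a log2 scale, so the deposited values carry a rescaling that the sources do not describe. A cluster was tested when it reached its array's median, which lay between 5.16 and 5.43, on at least 3 of the 6 arrays. Of all clusters 33347 passed, and of the histone clusters 61 passed, each with at least 1 WT array at or above its median. In Hist1h2ai, Hist2h2aa1 (1), Hist1h2bh and Hist1h4a, 1 WT array and all 3 Keap1_KO arrays reached it, so the Keap1_KO arrays alone met the rule there. In Hist1h2ah, Hist1h3c and Hist3h2bb-ps, 1 WT and 2 Keap1_KO arrays did. For these clusters the filter leaned on the group with the higher mean. Keap1 itself checked the genotype labels: in the order A, D, F for WT and B, C, D for Keap1_KO, used for all values below, its levels were 5.30, 5.41 and 5.77 against 4.87, 4.89 and 4.70, with no overlap, although it was below the median on 4 of the 6 arrays. Nqo1, an NRF2 target, read 4.68, 4.69 and 5.03 on the WT arrays and 8.50, 7.55 and 9.14 on the Keap1_KO arrays. The T cell genes Cd3e (14.30 to 16.19), Cd4 (11.16 to 13.29) and Il2ra (13.60 to 14.19), and Ikzf2 (14.92 to 15.57) were well above the median on every array, and Foxp3 lies on a cluster shared by 3 symbols (10.76 to 12.41).

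Nearly every histone cluster had a higher mean in Keap1_KO. Of all 69 clusters, 67 did, with a median difference of 0.98 (1.98-fold) and a range from -0.08 to 3.90, whereas 35.9% of all clusters on the array did. The difference exceeded 1 in 34 histone clusters, against 2.37% of all clusters. In 30 histone clusters every Keap1_KO array was above every WT array, against 4.08% of all clusters, and in 0 was the order reversed, against 8.45%. Among the 61 that passed the filter, 60 had the higher mean (40.7% of all that passed), 28 did not overlap (5.88%), 33 exceeded 1 (4.61%) and the median was 1.04 (2.05-fold). These shares are also the background for the counts by type, stretch and gene list below. All clusters on the array include 33056 without a gene name. With 1 single-symbol cluster per gene, the median difference of all was 0.06, against -0.10 over all that passed. Of other protein-coding genes that passed, 39.5% of those under 1 kb had the higher mean. The share was 65.5% at 1 to 5 kb, 71.3% at 5 to 20 kb, 54.1% at 20 to 100 kb and 40% above that. The 8 that did not pass were Hist1h1d, Hist1h1t, Hist1h3i, Hist1h3g, Hist1h4j, Hist1h4f and both Hist1h4b clusters, and 7 of them had the higher mean.

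No histone cluster passed the test. By limma with Benjamini-Hochberg adjustment over all 33347 clusters, 0 clusters of any kind were called at adjusted p under 0.05 (0%), and the lowest adjusted p was 0.603, which most of the histone clusters shared. At an unadjusted p under 0.05 there were 35 of 61 histone clusters, against 7.43% of all clusters tested in either direction and 4.65% in the higher direction. With array weights, which give less influence to arrays that deviate from their group, limma called 2737 clusters (8.21%), among them 35 of the 61 histone clusters (5.71% of all clusters were called higher), while each other setting called 0. An exact permutation test of a single value cannot go below 0.1 with 3 arrays against 3.

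**Figure D1:**
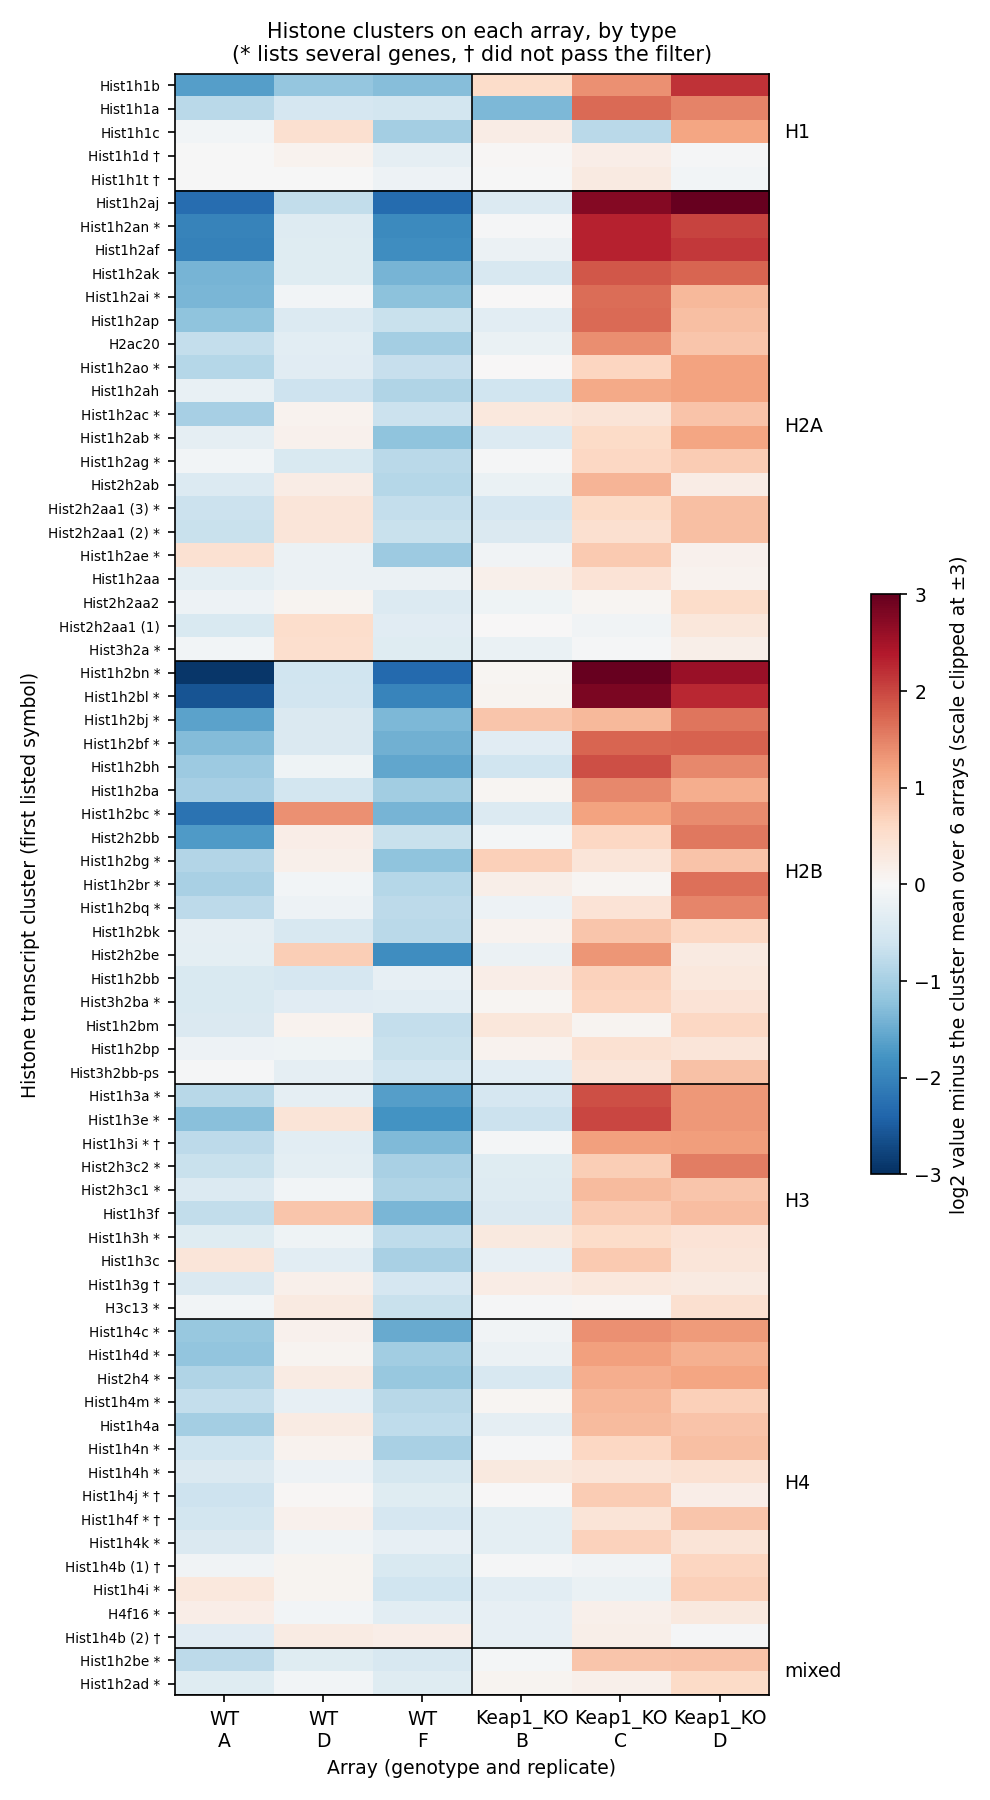
Each row is 1 of the 69 histone clusters, ordered by type and by Keap1_KO to WT difference, and each column is 1 array; colour gives the log2 value minus that cluster's mean over the 6 arrays, clipped at 3 in either direction. Blue fills WT A and F and red fills Keap1_KO C and D in most rows, while WT D and Keap1_KO B are pale.

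Linker histone H1 was measured by 5 clusters of 1 gene each, of which 3 passed. Hist1h1b read 5.30, 5.80 and 5.69 in WT and 7.51, 8.33 and 9.14 in Keap1_KO. Its groups stood well apart, by 2.73 ± 0.43 (SE; 6.62-fold, limma adjusted p = 0.603, unadjusted 6.0e-04), and its WT values lay close together. Those WT values were near the medians of their arrays (5.32, 5.31 and 5.43), with WT A just below its own. Hist1h1a read 5.87, 6.16 and 6.12 against 5.33, 8.37 and 8.15. Keap1_KO B was thus below all WT arrays, and the difference of 1.23 ± 0.80 became 2.21 without that array and 0.69 without Keap1_KO C. Hist1h1c, a linker histone that is also expressed outside S phase, read 9.38, 9.94 and 8.43 against 9.68, 8.65 and 10.64, with broad overlap. Hist1h1d and the testis gene Hist1h1t were below the median on all or nearly all arrays, with differences of 0.13 and 0.12. The median over the 5 clusters was 0.41.

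The H2A clusters, all 20 of which passed, had a median difference of 0.96, and 19 had the higher mean. In 10 the groups did not overlap. Hist1h2aj read 9.21, 10.75 and 9.17 in WT and 11.08, 14.24 and 14.51 in Keap1_KO, a difference of 3.57 ± 0.99 (11.9-fold, adjusted p = 0.603). RefSeq records this gene as a pseudogene, so its signal may come from related copies that the probes cannot be shown to separate. The cluster listing Hist1h2an first, with 9 H2A genes in its listing, read 10.34, 11.97 and 10.44 against 12.30, 14.67 and 14.37. Hist1h2af read 9.02, 10.69 and 9.19 against 10.88, 13.37 and 13.18. In these 3 clusters WT D was the highest WT array and Keap1_KO B the lowest Keap1_KO array, and the gap between those arrays was small beside the difference of the means. The only tested histone cluster with a lower mean was the one shared by Hist3h2a and its neighbour Trim17, at 7.25, 7.83 and 6.98 against 7.12, 7.30 and 7.50. That difference was -0.04 ± 0.27, and its sign turned positive when arrays were centred on their medians (0.069), quantile-normalized again (0.060) or weighted (0.052).

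The median difference of H2B was 1.28 over 18 clusters, all of which passed and had the higher mean, and 12 did not overlap. Its rank among the types depended on which clusters were counted. Over the tested clusters of 1 gene the median was 0.95 for H2B, 1.26 for H2A, 1.23 for H1, 1.02 for H4 and 0.74 for H3. Over all tested clusters, H1 was above H2B with array weights (2.06 and 1.49), after a second quantile normalization (1.35 and 1.33), without Keap1_KO B (where H1 reached 2.21) and without WT A (1.14 and 1.08) or F (1.27 and 1.10). The cluster listing Hist1h2bn first gave the largest difference of any histone cluster. It read 10.10, 12.42 and 10.69 in WT and 13.07, 16.24 and 15.60 in Keap1_KO. That is 11.07 ± 1.20 against 14.97 ± 1.67 (SD, n = 3), a difference of 3.90 ± 0.97 (SE; 14.9-fold, adjusted p = 0.603). The Hist1h2bl cluster was nearly the same, at 10.83, 12.84 and 11.45 against 13.50, 16.26 and 15.69. The cluster listing Hist1h2bj first read 7.27, 8.46 and 7.53 against 9.70, 9.86 and 10.48, and here all Keap1_KO arrays, B included, were well above WT D, with a difference of 2.26 ± 0.38 (unadjusted p = 9.0e-04). Hist1h2bf read 6.77, 7.63 and 6.64 against 7.73, 9.81 and 9.84. The cluster listing Hist1h2bc first behaved otherwise, with 13.04 on WT D, close to the 12.88 and 13.09 of Keap1_KO C and D, and 9.46 and 10.29 on the other WT arrays.

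For H3, 8 of 10 clusters passed, all 10 had the higher mean and the median was 0.89. The cluster listing Hist1h3a first read 6.34, 6.91 and 5.53 in WT and 6.67, 9.12 and 8.48 in Keap1_KO, a difference of 1.83 ± 0.69. The cluster listing Hist1h3e first read 7.70, 9.34 and 7.16 against 8.32, 10.96 and 10.25, a difference of 1.78 ± 0.84. In both, Keap1_KO B lay below WT D, so the groups overlapped. They did not overlap in 3 of the 10, Hist1h3h (0.83), Hist1h3g (0.53) and Hist1h3i (1.61), and only the first of these passed the filter.

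H4 had a median of 0.70 over 14 clusters, 13 of them with the higher mean, and 10 of the 14 passed. The cluster listing Hist1h4c first read 7.18, 8.45 and 6.81 against 8.22, 9.68 and 9.61, a difference of 1.69 ± 0.57. The Hist1h4d cluster read 7.28, 8.54 and 7.41 against 8.28, 9.70 and 9.52. WT D was above Keap1_KO B in both. The groups did not overlap in 2 H4 clusters, Hist1h4m (1.19) and Hist1h4h (0.75). Among the tested H4 clusters the smallest differences were those of the cluster listing Hist1h4i first, at 9.69, 9.46 and 8.78 against 9.08, 9.18 and 10.10 (difference 0.14), and of H4f16, the single Hist4 gene, with 0.13. The untested Hist1h4b (2) was lower, at -0.08. The 2 clusters that listed more than 1 type, with Hist1h2be and Hist1h2ad first, did not overlap and differed by 1.08 and 0.53.

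**Figure D2:**
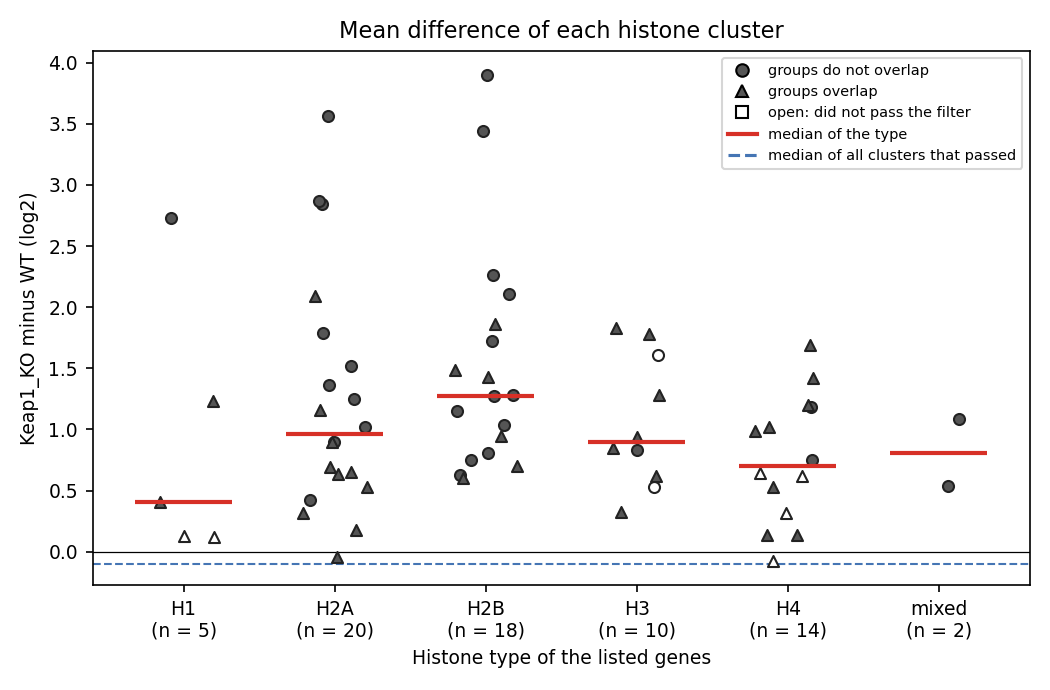
Points are the Keap1_KO minus WT differences (log2) of the 69 histone clusters by type, circles where the groups do not overlap and triangles where they do, open where the cluster did not pass the filter; red bars are the medians of each type and the dashed line is the median of all clusters that passed (-0.10). The median shown is 1.28 for H2B and 0.96 for H2A, an order that is turned over the tested clusters of 1 gene (0.95 and 1.26).

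**Figure D3:**
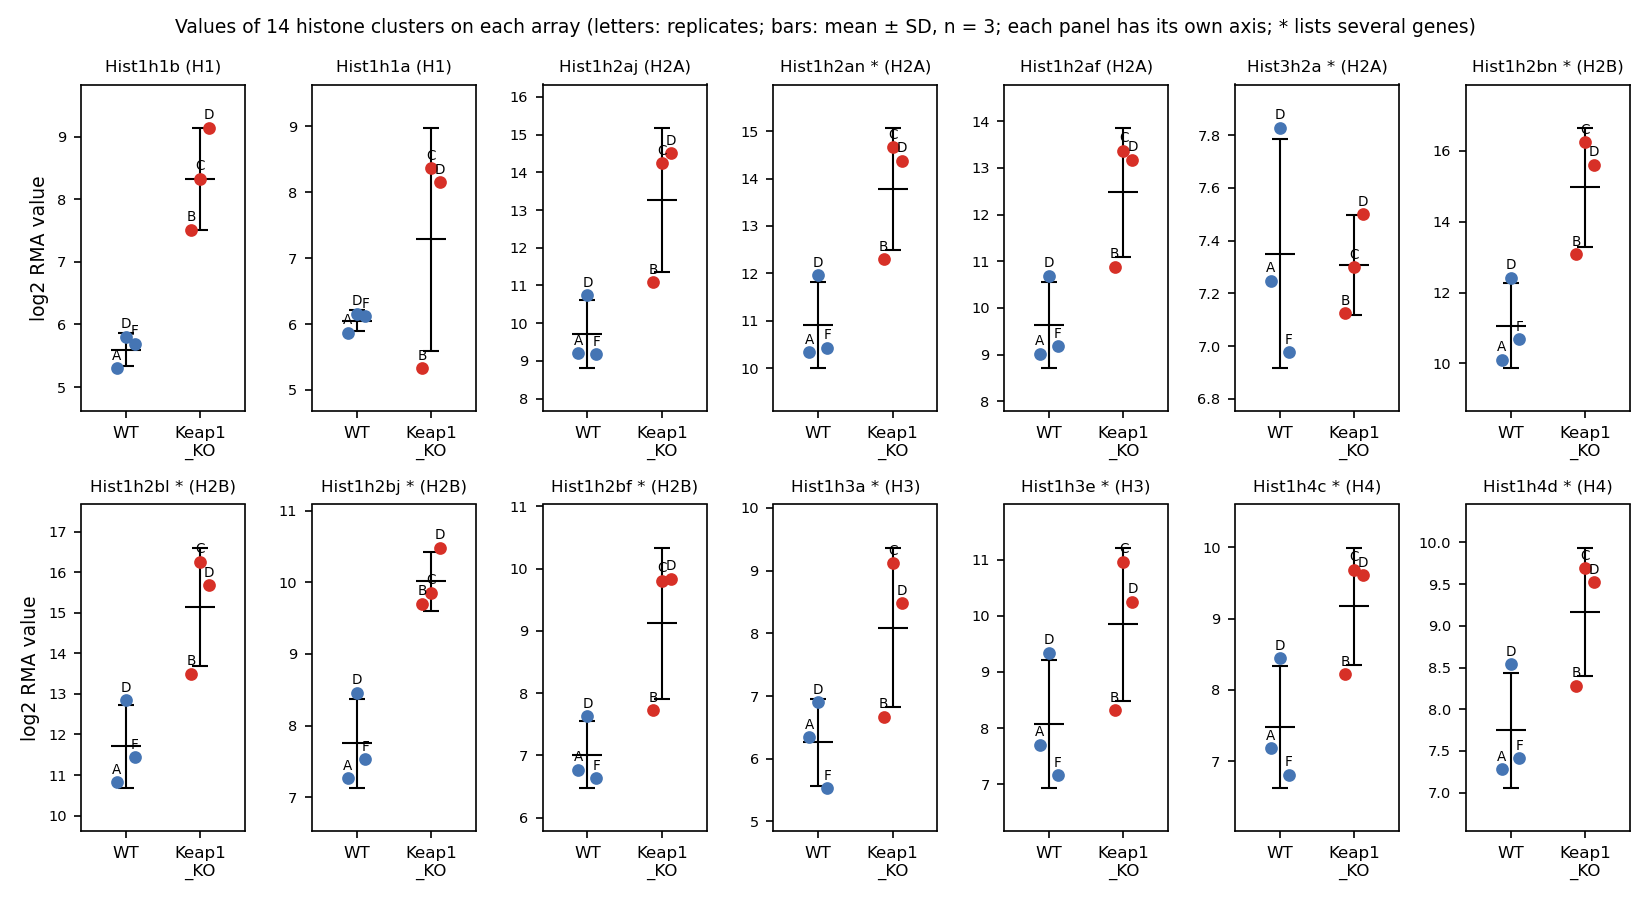
Each panel shows the log2 RMA value of 1 histone cluster on the 6 arrays, WT in blue and Keap1_KO in red, with the replicate letter above each point and the mean ± SD (n = 3) as a bar; axes differ between panels. Hist1h1b and Hist1h2bj have the widest gap relative to the spread, and in Hist1h1a Keap1_KO B (5.33) is below every WT array.

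Clusters with the same listing did not give the same values. There were 42 distinct listings, and 8 groups of clusters with identical listings held 35 of the 69 clusters. The 11 H4 clusters that list the same 13 genes ranged from 0.13 to 1.69, the 7 H2A clusters that list the same 9 genes from 0.53 to 2.87, and the 4 H2B clusters that list the same 4 genes from 2.11 to 3.90. The 30 clusters of 1 gene had a median of 0.83, with 29 higher and 11 not overlapping. The 39 shared ones had a median of 1.08, with 38 higher and 19 not overlapping. Members that share a listing may read the same transcripts, so the 69 clusters are not 69 separate measurements.

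Many H2A and H2B genes stand head to head and share the sequence between their starts. In all, 10 such pairs, with starts 164 to 281 bases apart, had both genes first-listed on a cluster. The H2B difference was above the H2A difference in 6 pairs and below it in 4. Many of these clusters list several genes. Hist1h2bl, Hist1h2bn, Hist1h2bj and Hist1h2bf share a listing of 4 genes, and Hist1h2ai, Hist1h2an, Hist1h2ao, Hist1h2ag and Hist1h2ae a listing of 9. The values of a pair can thus not be assigned to its own genes or to the sequence between them. Hist1h2ak and Hist1h2bn, 164 bases apart, gave 2.09 and 3.90. Hist1h2ag and Hist1h2bj gave 0.89 and 2.26, whereas Hist1h2an and Hist1h2bp gave 2.87 and 0.63. In 3 pairs the values were closer: Hist1h2ah and Hist1h2bk with 1.16 and 1.04, Hist1h2ao and Hist1h2bq with 1.25 and 1.15, and Hist1h2ap and Hist1h2br with 1.52 and 1.27. The Hist1h2ad cluster of another pair also lists H3 genes. The testis pair, Hist1h2aa and Hist1h2ba, encodes variants made in male germ cells. Hist1h2ba read 6.30, 6.76 and 6.27 in WT against 7.36, 8.74 and 8.40 in Keap1_KO, and Hist1h2aa read 5.60, 5.73 and 5.74 against 6.04, 6.30 and 6.00. In neither did the groups overlap, and no cluster in a pair had a lower mean.

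**Figure D4:**
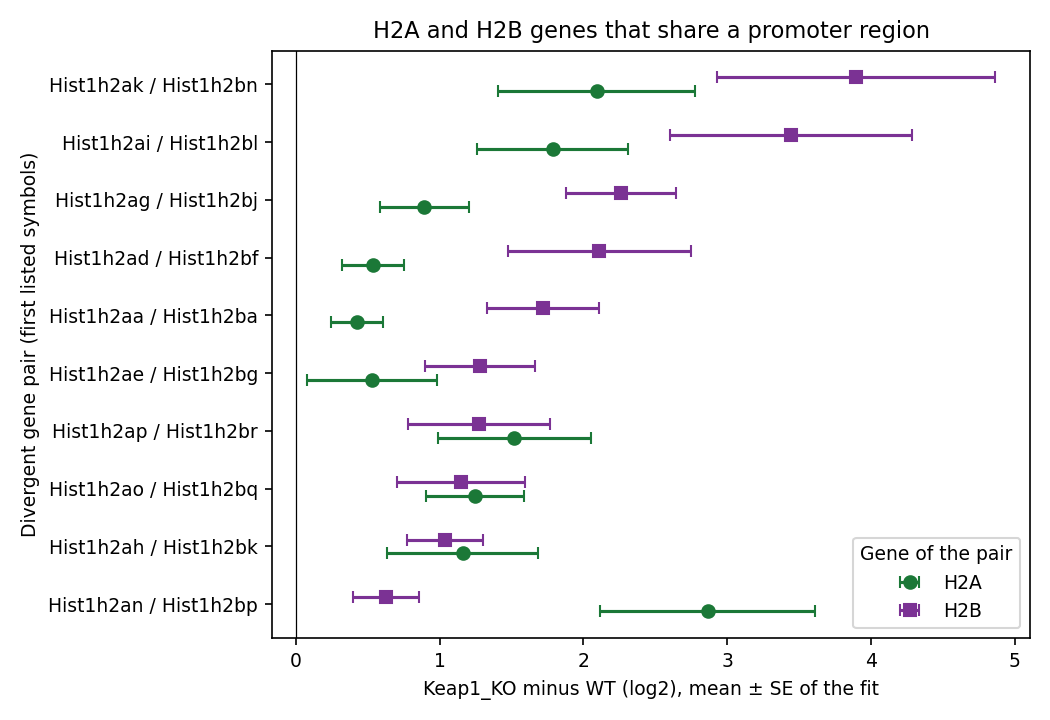
Rows are the 10 divergent H2A and H2B pairs, named by first-listed symbol; green circles (H2A) and purple squares (H2B) give the Keap1_KO minus WT difference (log2) and bars its standard error from limma. All 20 points lie above 0, and the members of a pair differ most for Hist1h2an and Hist1h2bp (2.87 and 0.63). Many of the clusters list several genes, so their points are not assigned to the gene named.

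The Hist1 genes lie on chromosome 13 and were split wherever neighbouring members were over 100 kb apart. Each cluster was placed by its first-listed gene alone. Hist1h2bn and Hist1h2bl in the first stretch, Hist1h2bj in the second and Hist1h2bf in the third list the same 4 genes. The H4 clusters that share a listing of 13 genes fall in Hist1, Hist2 and Hist4. The medians that follow can thus not be assigned to a position. The 19 clusters of the first Hist1 stretch, which holds Hist1h1b, Hist1h2bn and Hist1h2aj, had a median of 1.27, and 14 did not overlap. The second (5 clusters, with Hist1h2bj and Hist1h4i) had a median of 1.04 with 3 not overlapping, and the third (27 clusters) 0.90 with 9. The fourth (2 clusters) had a median of 1.07 with 2 not overlapping. Hist2 (12 clusters) had a median of 0.82, all higher, but only H2ac20 (6.36, 6.75 and 6.06 against 6.88, 8.47 and 7.90) did not overlap. The 3 Hist3 clusters had a median of 0.60. Of other genes, 49 within the Hist1 locus had a cluster of their own, 35 of them vomeronasal receptor genes. In them 23 had the higher mean, with a median of -0.0036 and a range from -0.45 to 0.40, and 1 did not overlap in the higher and 3 in the lower direction. Of these only 9 passed the filter, among them Zfp322a (-0.45) and Abt1 (0.40).

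Across arrays the histone clusters moved together. Their mean deviation from each cluster's 6-array mean was -0.79, -0.08 and -0.98 in WT and -0.12, 0.95 and 1.03 in Keap1_KO. WT D was the highest WT array in 58 of the 69 clusters, and Keap1_KO B the lowest Keap1_KO array in 60. Keap1_KO B lay below WT D in 35 clusters, whereas Keap1_KO C did in 11 and Keap1_KO D in 6. Set against the WT mean, the median difference was 0.41 for Keap1_KO B, 1.11 for C and 1.36 for D, and B, C and D were above all WT arrays in 31, 57 and 62 clusters. Leaving out WT D raised the count without overlap among the 61 from 28 to 50, and leaving out Keap1_KO B raised it to 49, while leaving out any other array gave 28 to 31. With fewer arrays, groups overlap less easily. In each type WT D was the highest WT array and Keap1_KO B the lowest Keap1_KO array, with deviations on Keap1_KO B from -0.29 (H3) to 0.04 (H2B) and on WT D from -0.39 (H1) to 0.05 (H3).

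Genes that work with histones, and the other genes of S phase, had smaller median differences than the histone clusters, which had been selected on theirs. In the list for histone mRNA 3′ end processing, 14 of the 20 genes with a cluster of their own had the higher mean and the median was 0.20. SLBP's gene, Slbp, read 9.16, 9.50 and 9.01 in WT and 9.08, 9.63 and 9.70 in Keap1_KO (0.25 ± 0.25), and its difference ran from 0.13 without Keap1_KO D to 0.44 without Keap1_KO B. Npat (-0.17 ± 0.28) and Casp8ap2 (-0.33 ± 0.26), 2 components of histone locus bodies, had lower means, which shrank to -0.02 and -0.12 without Keap1_KO C and reached -0.41 for Npat without WT F and -0.50 for Casp8ap2 without Keap1_KO B. Lsm10 (0.77 ± 0.39) and Lsm11 (0.08 ± 0.26) encode proteins of the U7 particle that cuts the histone pre-mRNA. The difference of Lsm10 lay between 0.44 without Keap1_KO C and 1.15 without Keap1_KO B, and Lsm11 between -0.079 without WT F and 0.25 without Keap1_KO B. Only Srrt (0.57 ± 0.25) and Snrpb (0.18 ± 0.18, or 0.10 without Keap1_KO D) did not overlap. Of 18 histone chaperone genes 15 had the higher mean, with a median of 0.31. Nasp, which carries H3 and H4, differed by 0.31 ± 0.21, Asf1b by 0.10 ± 0.18, and the CAF-1 subunit genes Chaf1a and Chaf1b by 0.31 ± 0.19 and 0.31 ± 0.23, both without overlap. Asf1b was 0.02 without WT F and 0.18 without WT D, and Chaf1b was 0.13 without Keap1_KO C. By limma 0 genes of either list were called, nor was any at an unadjusted p under 0.05.

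Replication-independent histones, which are made throughout the cell cycle and end in poly(A), had 6 tested genes, all with the higher mean and a median of 0.55. Over all 8 genes with a cluster of their own the median was 0.42. The 2 that did not pass, Macroh2a2 (-0.05) and H1f10 (-0.01), had the lower mean. H3f3a, H3f3b and H1f0 are not among the 8. H2ax, a variant that marks DNA breaks and whose mRNA can take either form of end, read 6.91, 7.46 and 5.99 in WT and 7.27, 8.61 and 9.24 in Keap1_KO (1.59 ± 0.60). Macroh2a1 read 8.53, 8.54 and 8.56 against 9.11, 8.97 and 9.02, a small difference (0.49 ± 0.16) with very close replicates and no overlap. H2aj (0.61 ± 0.31) and H2az1 (0.36 ± 0.20) also did not overlap in their groups, with 0.38 for H2aj without WT F and 0.23 for H2az1 without Keap1_KO C. The adjusted p was 0.603 for all 4, and 3 of the 6 had an unadjusted p under 0.05.

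The S phase list had 35 tested genes, 32 of them with the higher mean (40.7% of all clusters that passed), 10 without overlap (5.88%) and a median of 0.31. Mcm3, a subunit of the replicative helicase, read 8.25, 8.62 and 7.86 against 8.42, 10.21 and 9.84 (1.24 ± 0.50), with WT D the highest WT array and Keap1_KO B the lowest Keap1_KO array, as for the histones. Rrm2, which makes deoxyribonucleotides, read 7.06, 7.45 and 7.28 against 8.01, 7.83 and 8.11 (0.72 ± 0.20) without overlap. Lig1 (0.77 ± 0.21), Pola2 (1.01 ± 0.38), Gins2 (0.56 ± 0.21) and Tyms (0.35 ± 0.18) did not overlap either, while Pcna, the sliding clamp, did (0.17 ± 0.28, from -0.03 without WT F to 0.37 without WT D). E2f1 was below the median on all arrays. Mitosis genes had a median of 0.32 with 18 of 20 higher and 6 without overlap. Ube2c read 9.36, 8.18 and 8.81 against 9.91, 9.89 and 9.87, and Cdk1 (0.63 ± 0.19) and Birc5 (0.52 ± 0.18) did not overlap. Mki67 and Top2a, both abundant in dividing cells, showed no such order: Mki67 read 10.20, 8.22 and 9.97 against 11.10, 8.15 and 8.50 (-0.21 ± 0.91), and Top2a differed by 0.08 ± 0.43. Both changed sign with the arrays: Mki67 gave -1.14 without Keap1_KO B and 0.34 without Keap1_KO C, and Top2a gave -0.34 without Keap1_KO B and 0.31 without WT A. By limma 0 genes of these lists were called, with 7 S phase and 4 mitosis genes at an unadjusted p under 0.05 (7.43% of all clusters tested).

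The S phase, replication-independent histone and 3′ end processing lists had the histones' order of arrays within each genotype, and the mitosis genes did not. The order was not particular to such genes. CD4 T cell and Treg markers also had it (-0.48, -0.003 and -0.54 in WT and -0.18, 0.55 and 0.66 in Keap1_KO). So did the plasma cell, CD8 T cell, and macrophage and monocyte markers, whereas the chaperone list and the neutrophil, B cell, NK cell and erythroid markers did not. S phase genes deviated by -0.14, -0.11 and -0.35 on the WT arrays and by 0.02, 0.24 and 0.35 on the Keap1_KO arrays, and replication-independent histones by -0.29, -0.15 and -0.69 and by -0.01, 0.48 and 0.66. Mitosis genes were highest on Keap1_KO B (0.59), where the histones were lowest of the Keap1_KO arrays, and lowest on WT D (-0.59), where the histones were highest of the WT arrays. These lists were compared by their values only, and the difference between them was not tested.

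**Figure D5:**
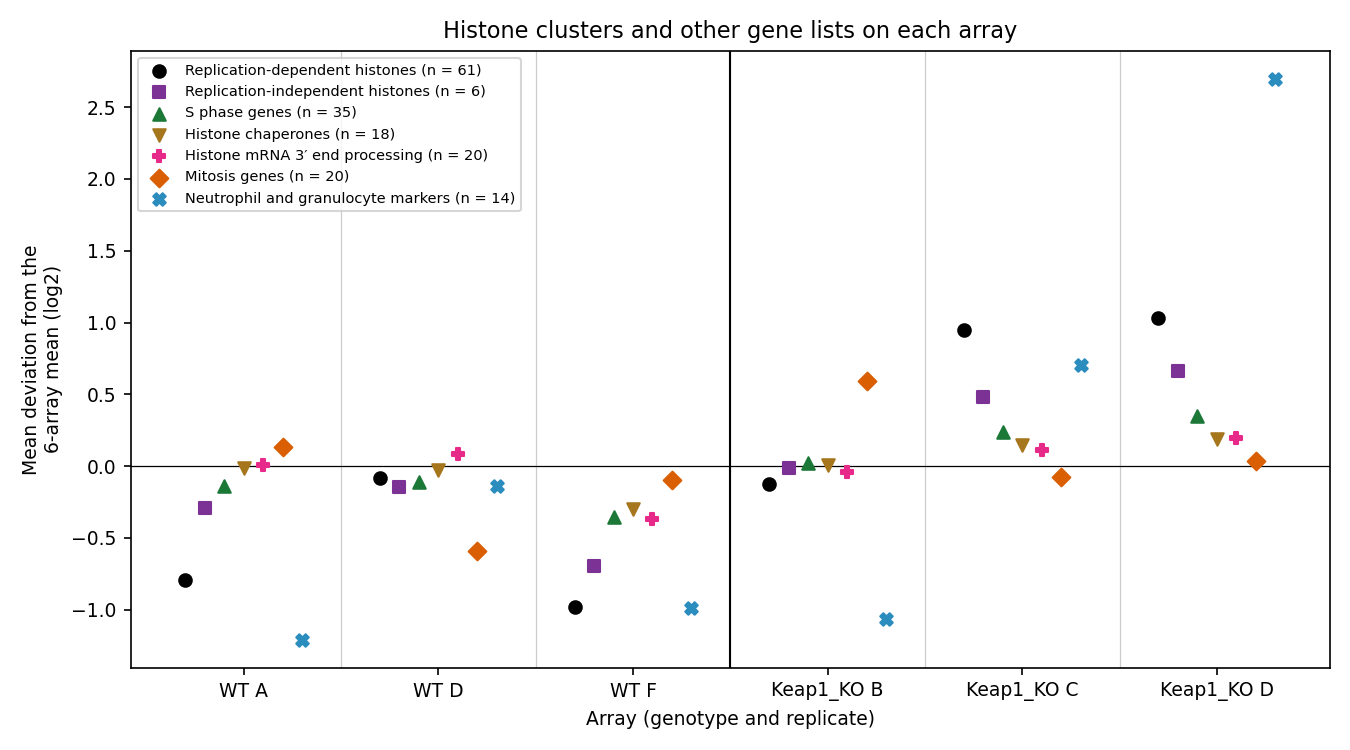
Points give, for each array, the mean over a gene list of the log2 value minus each gene's mean over 6 arrays, for the histone clusters that passed (black circles) and 6 other lists. The histone points run from -0.98 on WT F to 1.03 on Keap1_KO D, the mitosis points peak on Keap1_KO B (0.59), and the neutrophil and granulocyte markers reach 2.70 on Keap1_KO D.

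Markers of other cells moved over the same arrays. Of 16 neutrophil and granulocyte genes, 15 had the higher mean in Keap1_KO, with a median difference of 1.39, and of 1.65 over the 14 that passed, both larger than the histone medians of 0.98 and 1.04. Their mean level ran from 7.06 to 8.02 in WT and from 7.19 to 10.59 in Keap1_KO, with deviations of -1.21, -0.14 and -0.99 in WT and -1.06, 0.70 and 2.70 in Keap1_KO. Mpo, made by granulocyte precursors, read 6.15, 6.35 and 6.18 against 6.90, 9.37 and 9.82, and Ctsg also did not overlap. In this list Cebpe and Mmp9 did not pass the filter. Plasma cell markers (6 of 7 higher, 7.40 to 8.34 in WT and 7.58 to 9.26 in Keap1_KO), NK cell markers (7 of 9, 6.90 to 9.18 and 7.82 to 9.69), B cell markers (7 of 9, 6.13 to 7.92 and 6.62 to 8.01) and macrophage and monocyte markers (6 of 10, 5.59 to 6.27 and 5.97 to 6.56) were each highest on array D within either genotype. Erythroid markers had 4 of 7 higher (6.33 to 6.80 and 6.47 to 7.10), and both CD8 T cell markers were higher (6.34 to 7.79 and 6.67 to 8.38). The CD4 T cell and Treg list had 6 of 8 higher (13.44 to 13.98 and 13.81 to 14.64). Its median difference was 0.61, with a range from -0.11 (Ikzf2) to 2.35 (Tnfrsf18). The part of these cells in the histone values was not tested. Without Keap1_KO D, where the neutrophil and granulocyte markers were highest, the median of the 61 histone clusters was 0.85 and 58 had the higher mean. That setting still holds Keap1_KO C, where these markers were also above every WT array (0.70), so it is no test of their part. In bulk RNA, more cells of a type and more RNA per cell cannot be told apart.

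Gene length moved with the arrays as well, as a check chosen after the values had been seen. Among other protein-coding genes that passed, the median difference was 0.18 for 1354 genes of 1 to 5 kb, 0.20 for 3711 of 5 to 20 kb, 0.03 for 4534 of 20 to 100 kb and -0.08 for 1135 that are longer. The 228 genes under 1 kb had a median of -0.10. The share with the higher mean was 39.5% under 1 kb, 65.5% at 1 to 5 kb and 71.3% at 5 to 20 kb. It was 54.1% at 20 to 100 kb and 40% above that. A difference above 1 was held by 3.51%, 13.7%, 8.27%, 2.93% and 0.35% of the classes in the same order. Genes of 1 to 5 kb deviated by -0.18, 0.04 and -0.35 in WT and by -0.13, 0.29 and 0.34 in Keap1_KO. That is the order of the histone clusters at a smaller size. Genes under 1 kb did not have it, with -0.0085, -0.0052 and 0.045 in WT and -0.073, 0.095 and -0.053 in Keap1_KO. The histone clusters themselves were not assigned to a length class. The part of gene length in the histone values was not tested.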

How the data were processed

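RNA from 3 WT and 3 Keap1_KO samples was measured on Affymetrix mouse arrays. The authors deposited log2 values, which the submitters' processing notes link to Affymetrix Expression Console, RMA (background correction, quantile normalization and probe summary) and Transcriptome Analysis Console. Sources used here give no genome build. Gene names came from the annotation of the Affymetrix mouse array that the row identifiers match, which is not the Mouse Gene model of the series' design text: 30354 clusters had 1 symbol, 2118 several and 33056 none here. Groups come from the sample titles.

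Clusters at or above their array's median on at least 3 of 6 arrays (33347) were fitted with limma 3.58.1 (lmFit, eBayes, two-sided) in R 4.3.3, Benjamini-Hochberg adjusted, threshold 0.05. The fit was tested on simulated data. SE is the standard error of that fit, SD the spread of 3 arrays. Level lists average the clusters that carry a single symbol. The members and all gene lists were chosen with earlier results of these data known. Values on every array are given for the 2 clusters per type with the largest difference in each direction among those tested. They are also given for the 8 largest without overlap. Genes fixed by name, plus up to 3 per list without overlap, are given with such values or, for most, with the difference and SE. Clusters named beyond this rule (Hist1h1c, Hist1h2bc, Hist1h4i, H2ac20, Hist1h2aa, Hist1h2ba and others given by their differences) were chosen after their values were seen. Alternatives were other filters, scalings, variance settings, array weights, 1 cluster per gene, clusters of 1 gene only, and leaving out each array. The number of arrays limits the precision.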

Additional observations from a re-analysis of the deposited data

How the results depend on the processing

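No paired analysis was possible because WT and Keap1_KO share only the replicate letter D, and nothing says that it pairs samples. The 61 histone clusters kept a positive median under every alternative run. It ranged from 0.85 (without Keap1_KO D) to 1.36 (without Keap1_KO B) when 1 array was left out, with 58 to 61 clusters higher, and was 1.02 over the 25 tested clusters of 1 gene. Centring arrays on their medians shifted the median of all clusters by 0.11, from -0.10 to 0.01, and the share of all clusters with a higher mean from 40.7% to 51.2%.

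Array weights gave 2737 called clusters and 35 called histone clusters in place of 0, and 13 of the 14 histone clusters with values on every array by the naming rule were called; every other setting called 0 of all clusters and 0 histone clusters, leaving out each array included. The cause was not tested. With 1 cluster per gene, and with clusters of 1 gene only, 25 histone clusters were tested, all 25 higher and 10 without overlap. Leaving out 1 array gave 28 to 50 histone clusters without overlap. The median of the H1 clusters was 0.41 without a filter, 2.06 with array weights, and 0.80 to 2.21 when 1 array was left out, over the 3 tested clusters it rests on. Differences near 0 changed sign. Hist3h2a gave 0.060 after a second quantile normalization, 0.069 after centring, 0.052 with array weights and -0.23 to 0.20 when 1 array was left out. Pcna gave -0.0074 after the second quantile normalization, and -0.028 to 0.37 with 1 array left out. Top2a gave -0.53 with array weights, and -0.34 to 0.31 with 1 array left out. Lsm11 ranged from -0.079 to 0.25 and Mki67 from -1.14 to 0.34 when 1 array was left out. The list medians with 1 array left out were 0.06 to 0.24 for 3′ end processing, 0.20 to 0.32 for chaperones, 0.25 to 0.39 for S phase and 0.19 to 0.49 for mitosis genes.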
